A study of Mus musculus with 8 samples.

Results

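Barrier lipid and cholesterol synthesis genes of the epidermis were examined in back skin epithelium of mouse embryos with and without the forkhead transcription factor Foxi3. The set of 36 genes was defined by symbol and covers ceramide, acylceramide, lipid transport and sterol synthesis. Of these, 34 were found among the 26165 genes of the array data by their symbol, each as 1 row. Cers3 is present under its earlier symbol Lass3 and is described apart from the expression counts. Hmgcs1 was not matched, so its expression is not analysed here. Both are included where promoters are counted.

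The data comprise 8 mouse embryos at E15.5 (days of gestation), 1 array each. The 4 Foxi3 null embryos (Foxi3-/-) lack the gene in all tissues and were recognised by the missing jaw, with genotyping as a second check. The 4 wild-type embryos (Foxi3+/+) came from the same 4 litters, and the strain was C57/Bl6. Epithelium was lifted from the dermis with dispase before RNA was prepared from each embryo, so no embryos were pooled. The question a comparison of these groups addresses is which transcripts of the embryonic skin epithelium depend on Foxi3.

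The outermost skin layers keep water in by means of lipid sheets between dead, flattened cells. These sheets consist of ceramides, cholesterol and free fatty acids. Keratinocytes make ceramides from serine and fatty acyl chains, lengthen some chains to an extreme degree, and join linoleate to the end of the longest ones to give acylceramides, which are glucosylated, packed into lamellar granules and released. Cholesterol is made in the same cells through the mevalonate pathway, whose enzyme genes are known targets of the sterol-sensing SREBP factors. In the mouse embryo these programmes are switched on as the epidermis stratifies, before the barrier closes late in gestation.

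Promoter sequence is shown for 3 genes on which the results turn. These are Cyp51, the member with the lowest unadjusted p, Alox12b, with the largest difference and the widest range between embryos, and Elovl7, with the largest difference among the elongases. The sequences are the 250 bases before the start of each gene from RefSeq (GRCm38.p6), written 5′ to 3′ on the strand of the gene. They lie at chr5:4104698-4104947 on the minus strand for Cyp51, chr11:69156822-69157071 on the plus strand for Alox12b and chr13:108214154-108214403 on the plus strand for Elovl7. Capitals mark matches to CCAAT or to ATCACNNCA, a looser form of the sterol regulatory element chosen after the sequences were seen.

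Cyp51: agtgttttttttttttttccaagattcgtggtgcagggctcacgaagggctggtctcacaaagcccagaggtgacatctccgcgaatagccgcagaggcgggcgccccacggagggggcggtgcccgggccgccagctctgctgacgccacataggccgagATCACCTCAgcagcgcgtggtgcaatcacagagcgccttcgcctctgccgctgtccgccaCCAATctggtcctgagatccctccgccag
Alox12b: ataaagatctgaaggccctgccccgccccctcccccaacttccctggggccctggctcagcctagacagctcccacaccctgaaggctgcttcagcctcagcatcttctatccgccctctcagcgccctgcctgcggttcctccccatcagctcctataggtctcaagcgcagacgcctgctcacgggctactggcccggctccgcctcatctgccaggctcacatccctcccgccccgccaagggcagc
Elovl7: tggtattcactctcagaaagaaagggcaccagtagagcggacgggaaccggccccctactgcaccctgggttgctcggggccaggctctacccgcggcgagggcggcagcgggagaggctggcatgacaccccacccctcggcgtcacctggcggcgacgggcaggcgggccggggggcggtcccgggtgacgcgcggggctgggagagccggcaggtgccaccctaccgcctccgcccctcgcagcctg

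Of the 36 genes, 28 had such a window, among them Hmgcs1 and Cers3. The classical sterol regulatory element SRE-1 (TCACNCCAC, searched on both strands) was found in 1 of the 28 and in 1.22% of the 27025 symbols in the table. The 1 gene was Hmgcs1, which has no expression values here, so that no measured member with a window held SRE-1 in it. The 8 measured members without a window, named below, were not searched. The DR1 element bound by PPAR and RXR factors (AGGTCA as a direct repeat with 1 base between, both strands) was in 0 of the 28 and in 0.0407% of symbols. CCAAT, the core of the NF-Y element and likewise chosen after the sequences were seen, was in 12 of the 28 (42.9%) and in 37.5% of symbols. It was found in Sptlc1, Sptlc2, Elovl1, Pnpla1, Sgms2, Smpd1, Ppard, Lipm, Hmgcs1, Lss, Cyp51 and Dhcr7. In Cyp51 it began 29 bases before the start, on the strand shown, and ATCACNNCA, which 1 of the 28 members and 2.64% of symbols held, began 89 bases before it. Windows were not available for Aloxe3, Asah1, Fabp5, Dgat1, Dgat2, Lipk, Fdft1 and Sqle.

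Foxi3 itself had a log2 intensity of 8.96, 9.07, 9.20 and 8.55 in wild type 1 to 4 and of 8.62, 8.43, 8.45 and 8.19 in Foxi3 null 1 to 4. The difference was −0.52 (SE 0.15, exact two-sided permutation p = 0.0571, limma adjusted p = 1.00), and the groups overlapped through wild type 4. No source used here says whether the probes fall inside the deletion. Epithelial markers were high and even, with a list mean between 10.39 and 10.46 on the log2 scale in all 8 samples, and among them Krt5 lay between 12.02 and 12.07. The samples numbered 3 and 4 stood apart for the lipid genes, and values without them are given after the members.

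No barrier lipid or sterol gene passed the test, and all 34 had a lower mean in the Foxi3 null group, although 5 of these directions turned in other settings. With limma over all 26165 genes and a threshold of adjusted p under 0.05, 0 members were called higher and 0 lower, against 0.0115% of all genes called (0.00382% higher and 0.00764% lower). At unadjusted p under 0.05 the count was also 0 of 34, against 3.72% of all genes. All 34 log2 fold changes, given as Foxi3 null minus wild type, lay below 0, against 54% of all genes. The members share the same 8 arrays and are not independent, so that this count is only a description. They were chosen with earlier results of these data known, and 32 of 34 are brighter than the median gene. The direction of Dgat1, Abca12, Sgms2, Fabp5 and Asah1 turned under at least 1 other scaling, weighting or choice of samples. The median over the members was −0.19 (quartiles −0.27 and −0.11), beside −0.01 over all genes (quartiles −0.07 and 0.06). In no member did the groups separate. Over all genes, 1.07% had every null sample below every wild-type sample and 0.871% had every null sample above. At shares this small, and likewise at the 3.72% above, 0 of 34 says little about the members.

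**Figure D1:**
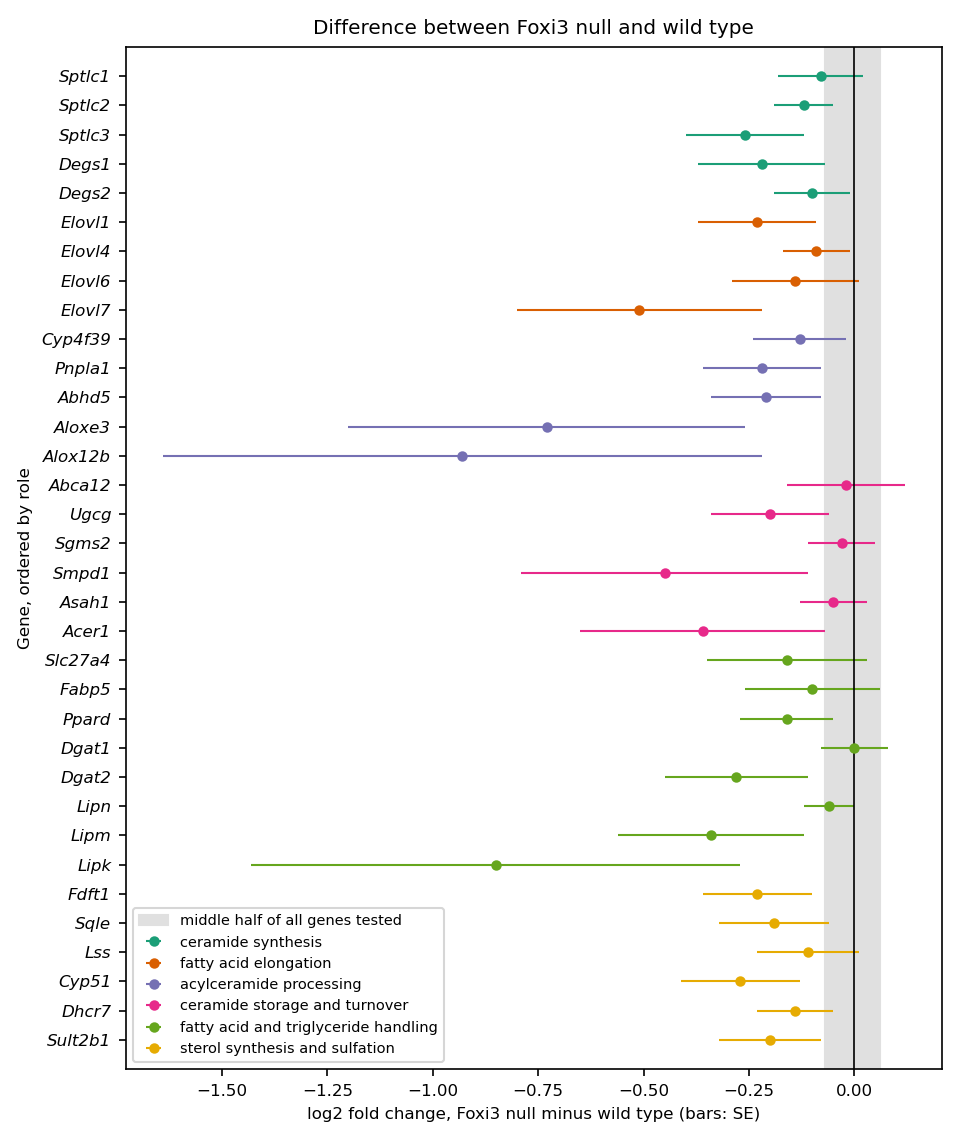
Log2 fold change (Foxi3 null minus wild type, x axis) of the 34 members, grouped by role on the y axis, with bars for the standard error of the limma fit. All points lie between −0.93 and 0, most of them left of the grey band, which spans the quartiles of all genes tested (−0.07 to 0.06).

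The differences were of about the size of the spread between embryos of the same genotype, taken without regard to the replicate number. That spread includes the low values of both samples numbered 3 and the high ones of both numbered 4. Between samples of the same number, the mean over the members differed by −0.35, −0.22, −0.20 and −0.19 (null minus wild type, numbers 1 to 4). Whether the numbers mark pairs is not known. Divided by the pooled SD within groups, the differences of the members ran from −1.44 for Sptlc2 to −0.01 for Dgat1, with a median of −0.87. Of the 34, 9 were at 1 SD or more. Members that varied more between embryos also had the larger differences. Across the 34 genes, which share the same 8 arrays and are not independent, the size of the fold change and the SD within groups had a Spearman correlation of 0.80, given as a description. With 4 embryos per group, a larger spread alone gives larger differences, so that this correlation says nothing about genotype. By size, 5 members lay below −0.4 (Alox12b, Lipk, Aloxe3, Elovl7 and Smpd1), which holds for 1.63% of all genes, and 7 lay at −0.1 or above (Sptlc1, Elovl4, Abca12, Sgms2, Asah1, Dgat1 and Lipn). The tissue is a mixture of layers, and fewer cells of a type and less RNA per cell cannot be told apart in it.

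**Figure D2:**
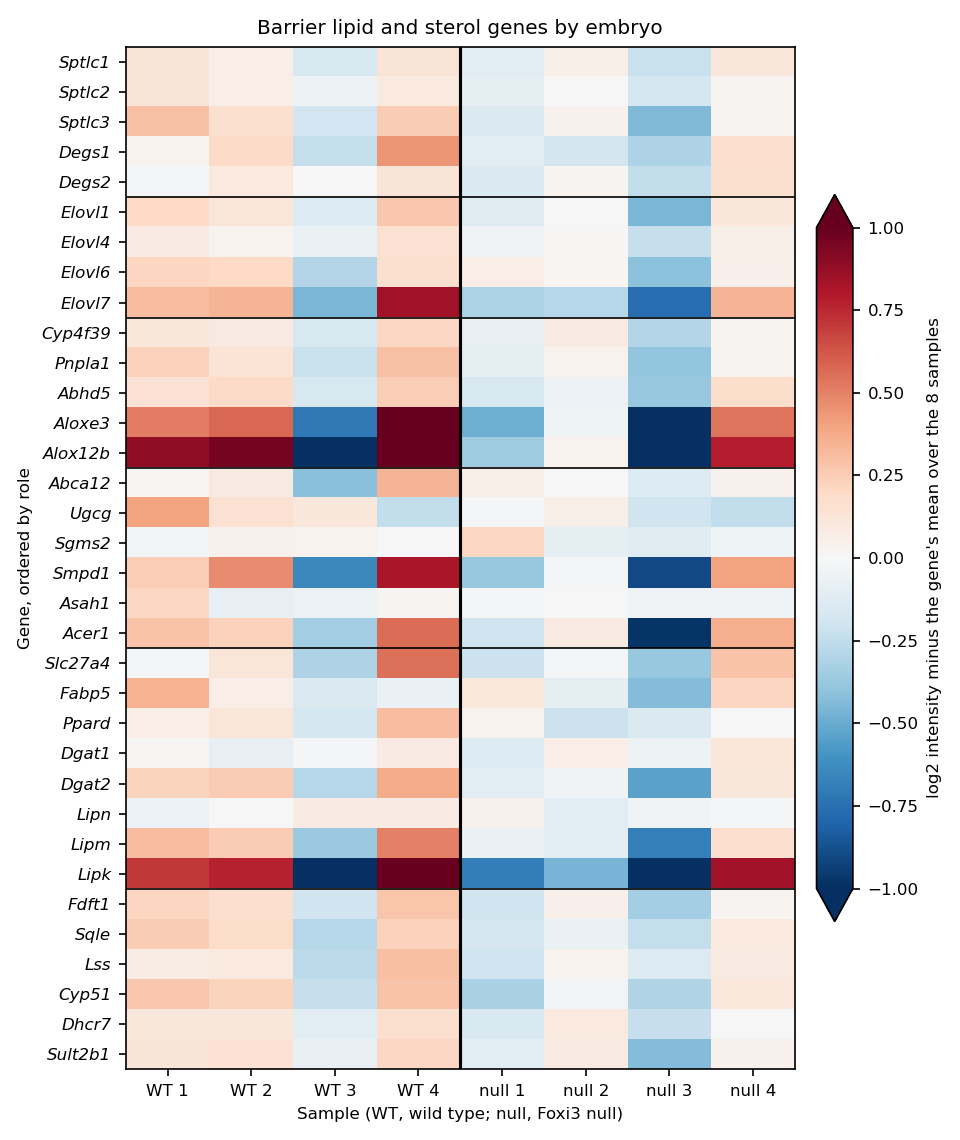
Log2 intensity of each member (rows, grouped by role) in each embryo (columns), as the difference from the gene's mean over the 8 samples, with colours saturated at −1 and 1. Wild type 3 and Foxi3 null 3 are blue in most rows and wild type 4 is red in most, in particular for Alox12b, Aloxe3, Lipk, Smpd1 and Elovl7.

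Ceramide synthesis begins with serine palmitoyltransferase, whose subunits are encoded by Sptlc1, Sptlc2 and Sptlc3. Sptlc3 was at 10.02, 9.88, 9.53 and 9.98 in wild type 1 to 4 and at 9.58, 9.77, 9.28 and 9.75 in null 1 to 4. Wild type 1, 2 and 4 lay above all null samples, while wild type 3 lay below 3 of them. The difference was −0.26 (SE 0.14, limma adjusted p = 1.00, exact two-sided permutation p = 0.171). It was −0.15 without null 3 and −0.37 without wild type 3. Sptlc2 was at −0.12 (SE 0.07) and Sptlc1 at −0.08 (SE 0.10). Sptlc2 had the largest difference relative to its spread of all members, from 9.56 ± 0.08 in wild type to 9.44 ± 0.09 in null (SD, n = 4 each). Degs1, the desaturase that turns dihydroceramide into ceramide, was at −0.22 (SE 0.15). Degs2, which can also add a hydroxyl group to give phytoceramide, was at −0.10 (SE 0.09) and dimmer than the median gene. The median of the 5 genes was −0.12. Cers3, the ceramide synthase for very long acyl chains, was listed as Lass3 and lay at 9.94 ± 0.24 in wild type and 9.70 ± 0.24 in null (SD, n = 4 each), a difference of −0.25 (SE 0.15, limma adjusted p = 1.00).

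Among the fatty acid elongases Elovl7 stood out by size. Its values were 9.75, 9.78, 8.99 and 10.28 in wild type 1 to 4 and 9.13, 9.16, 8.68 and 9.78 in null 1 to 4. Wild type 3 was below 3 of the 4 null samples and null 4 level with wild type 2, so that the groups overlapped. The difference was −0.51 (SE 0.29, limma adjusted p = 1.00, exact two-sided permutation p = 0.257), and it lay between −0.75 without wild type 3 and −0.32 without wild type 4. Elovl1, which makes very long saturated chains, was at −0.23 (SE 0.14), and Elovl6, which lengthens palmitate, was at −0.14 (SE 0.15). Elovl4, needed for the ultra-long chains of acylceramides, was at −0.09 (SE 0.08), with a range of 0.38 over all 8 embryos against 1.59 for Elovl7. Over the 4 elongases the median was −0.18.

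The acylceramide enzymes fell apart into steady and variable genes. Alox12b and Aloxe3, which encode the pair of lipoxygenases that oxidise the linoleate of acylceramides in sequence and are next to each other on chromosome 11, varied widely. Their values are given although they were chosen after being seen. Alox12b was at 10.76, 10.83, 8.71 and 11.06 in wild type 1 to 4 and at 9.52, 9.91, 7.54 and 10.66 in null 1 to 4. The 8 embryos thus spanned 3.52 on the log2 scale, an 11.5-fold range, and wild type 3 lay below 3 of the 4 null samples. The difference was −0.93 (SE 0.71, limma adjusted p = 1.00, exact two-sided permutation p = 0.286). It moved to −0.31 without null 3 and to −1.47 without wild type 3, and was −0.85 without both. Aloxe3 was at 8.19, 8.25, 6.96 and 8.76 in wild type and at 7.19, 7.63, 6.21 and 8.21 in null samples. From wild type 4 down to null 3 the embryos ranked alike for both lipoxygenase genes, except that null 4 and wild type 1 changed places. The Aloxe3 difference was −0.73 (SE 0.47, limma adjusted p = 1.00), with −0.37 without null 3 and −1.09 without wild type 3.

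The other acylceramide genes differed less. Abhd5, a lipase cofactor that also assists Pnpla1, had the lowest unadjusted p of this group. It was at 9.87, 9.92, 9.57 and 9.97 in wild type 1 to 4 and at 9.57, 9.67, 9.35 and 9.90 in null 1 to 4. Wild type 3 was level with null 1, and null 4 lay within the wild-type range. The difference was −0.21 (SE 0.13, limma adjusted p = 1.00), with −0.12 without null 3. Pnpla1, the transacylase that attaches linoleate, was at −0.22 (SE 0.14), and Cyp4f39, which hydroxylates the end of the ultra-long chain, at −0.13 (SE 0.11). The median of the 5 genes was −0.22.

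**Figure D3:**
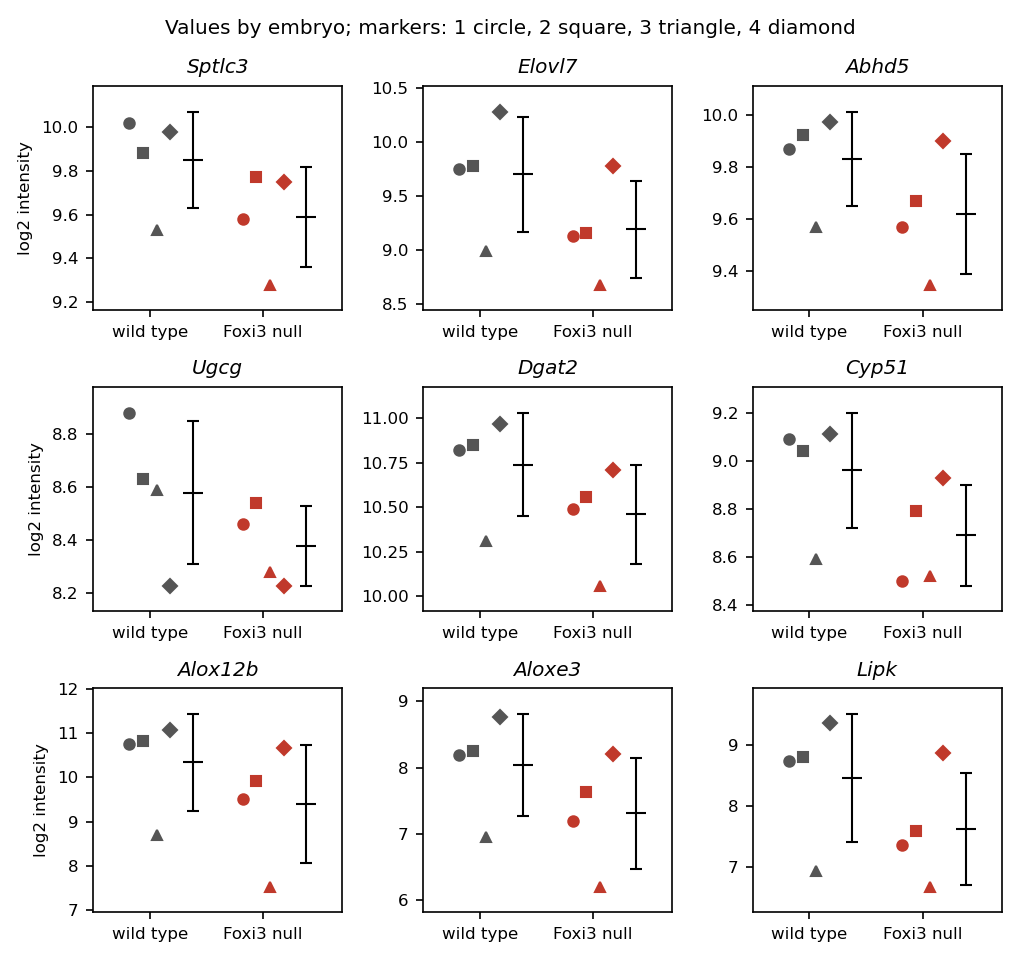
Log2 intensity (y axis, a scale of its own in each panel) of 9 members in wild-type (grey) and Foxi3 null (red) embryos, with the replicate number given by the marker shape and the mean ± SD of 4 embryos at the right of each group. The groups overlap in every panel, and the triangles (embryos numbered 3) are the lowest of their group in all panels but those of Ugcg and, for the null group, Cyp51.

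Genes for packing and turnover of ceramides were mixed in their behaviour. Ugcg, which encodes glucosylceramide synthase, was at 8.88, 8.63, 8.59 and 8.23 in wild type 1 to 4 and at 8.46, 8.54, 8.28 and 8.23 in null 1 to 4. Unlike in most members, wild type 4 and null 4 were the lowest samples of their groups. The difference was −0.20 (SE 0.14, limma adjusted p = 1.00), with −0.11 without wild type 1 and −0.32 without wild type 4. Abca12, the transporter that loads lipid into lamellar granules, was at 10.60 ± 0.31 in wild type and 10.58 ± 0.09 in null (SD, n = 4 each), a difference of −0.02 (SE 0.14) whose sign turned without wild type 4 (0.09). Smpd1, which encodes acid sphingomyelinase, was at 10.07, 10.29, 9.18 and 10.64 in wild type and at 9.44, 9.81, 8.92 and 10.22 in null samples. Wild type 3 again lay below all null samples but null 3. Its difference was −0.45 (SE 0.34, limma adjusted p = 1.00), with −0.22 without null 3 and −0.74 without wild type 3. Of the ceramidase genes, Acer1 (alkaline) was at −0.36 (SE 0.29) and −0.10 without null 3, and Asah1 (acid) at −0.05 (SE 0.08). The sphingomyelin synthase gene Sgms2 was at −0.03 (SE 0.08). Over these 6 genes the median was −0.13.

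Genes for fatty acids and triglycerides included the member with the largest difference after Alox12b. Lipk, an acid lipase gene of the late epidermis, was at 8.75, 8.81, 6.93 and 9.37 in wild type 1 to 4 and at 7.35, 7.58, 6.67 and 8.88 in null 1 to 4. Null 4 was above wild type 1 and 2, and wild type 3 below all null samples but null 3. The difference was −0.85 (SE 0.58, limma adjusted p = 1.00), with −0.53 without null 3 and −1.36 without wild type 3. The related and neighbouring genes on chromosome 19 did not share its size, with Lipm at −0.34 (SE 0.22) and Lipn at −0.06 (SE 0.06). Lipn was dim, between 2.93 and 3.12 in all samples, and could show little.

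Dgat2 and Dgat1 encode unrelated enzymes that make triglyceride. Dgat2 was at 10.82, 10.85, 10.31 and 10.97 in wild type 1 to 4 and at 10.49, 10.56, 10.06 and 10.71 in null 1 to 4. Wild type 3 was lower than 3 null samples, and the other wild-type samples were above all null samples. The difference was −0.28 (SE 0.17, limma adjusted p = 1.00), with −0.15 without null 3. Dgat1 had a mean of 7.19 in both groups (SD 0.07 in wild type and 0.12 in null, n = 4 each). The fatty acid transporter gene Slc27a4 was at −0.16 (SE 0.19), the nuclear receptor gene Ppard at −0.16 (SE 0.11), and Fabp5, a fatty acid carrier, at −0.10 (SE 0.16). Over these 8 genes the median was −0.16.

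The sterol genes had the lowest unadjusted p of all members, in Cyp51. Cyp51, the lanosterol demethylase, was at 9.09, 9.04, 8.59 and 9.11 in wild type 1 to 4 and at 8.50, 8.79, 8.52 and 8.93 in null 1 to 4. Null 1 and null 3 lay below all wild-type samples, and wild type 3 below null 2 and 4. The difference was −0.27 (SE 0.14, limma adjusted p = 1.00, exact two-sided permutation p = 0.171). It lay between −0.39 and −0.21 when any 1 embryo was left out. Along the pathway, Fdft1 (squalene synthase) was at −0.23 (SE 0.13), Sqle (squalene epoxidase) at −0.19 (SE 0.13), Lss (lanosterol synthase) at −0.11 (SE 0.12) and Dhcr7, which completes cholesterol, at −0.14 (SE 0.09). Sult2b1, which makes cholesterol sulfate in the granular layer, was at −0.20 (SE 0.12). The median of the 6 genes was −0.19. In Sqle and Lss the lowest of the 8 samples was wild type 3, not a null sample.

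Other genes of the same pathways were taken from 3 further lists of 23, 30 and 33 measured genes. Of these, 0 passed limma's adjusted threshold in either direction, against 0.0115% of all genes. Only 1, Pmvk, had an unadjusted p under 0.05, against 3.72% of all genes, so that it does not stand out. Of 23 other sterol genes 21 lay below 0, with a median of −0.16. The phosphomevalonate kinase gene Pmvk was at −0.29 (SE 0.13), the sterol carrier gene Stard4 at −0.17 (SE 0.08) and the desaturase gene Sc5d at −0.21 (SE 0.13). Soat1, which esterifies cholesterol for storage, was at 0.29 (SE 0.16), among the 2 genes above 0. Of 30 other ceramide and elongation genes 23 lay below 0, with a median of −0.10. The ceramidase genes Acer2 and Asah2 were at −0.34 (SE 0.18) and −0.40 (SE 0.21), the elongation cycle gene Hsd17b12 at −0.18 (SE 0.10), and Cers4 (listed as Lass4) at −0.16 (SE 0.09).

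Of 33 other fatty acid genes 21 lay below 0, with a median of −0.03, nearer to that of all genes. The stearoyl desaturase gene Scd1 was at −0.59 (SE 0.32), the acyl-CoA synthetase gene Acsl5 at −0.12 (SE 0.07) and the glycerophosphate acyltransferase gene Gpam at −0.19 (SE 0.12). The desaturase gene Fads1 was at 0.24 (SE 0.11). These lists were not tested against each other or against the members.

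The barrier lipid genes also varied between embryos of the same genotype. The mean over the 34 members was 9.02, 9.00, 8.55 and 9.15 in wild type 1 to 4 and 8.67, 8.78, 8.35 and 8.96 in null 1 to 4. Wild type 3 lay below 3 null samples and null 4 near the wild-type samples 1 and 2. The spread was an SD of 0.26 in either group (n = 4 each), beside group means of 8.93 and 8.69. Null 3 was the lowest of the 8 samples in 25 of 34 members (73.5%) and in 20.2% of all genes. Wild type 4 was the highest in 23 of 34 (67.6%) and in 4062 of the 26165 genes. In 25 of 34 members wild type 3 and null 3 were each the lowest of their own group, as in 11.6% of all genes. In 18 of 34 (52.9%) wild type 4 and null 4 were each the highest, as in 4044 of the 26165 genes.

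Leaving out these samples moved the values as follows. Without null 3 the median of the members went from −0.19 to −0.11 and 30 of 34 lay below 0. Without wild type 3 it was −0.28 with 34 below 0, and 16 of 34 members then had an unadjusted p under 0.05, against 7.25% of all genes. Without null 4 the median was −0.25 with 34 below 0, and 4 had an unadjusted p under 0.05, against 8.39% of all genes. Without wild type 4 it was −0.14 with 32 below 0, and 1 had an unadjusted p under 0.05, against 3.11% of all genes. Without both samples numbered 3 the median was −0.20, 32 lay below 0 and 11 had an unadjusted p under 0.05, against 4.81% of all genes. Without both samples numbered 4 the median was −0.20, 33 lay below 0 and 1 had an unadjusted p under 0.05, against 6.45% of all genes. With the replicate number as a block the median stayed at −0.19, and 18 of 34 had an unadjusted p under 0.05, against 8.94% of all genes. No source used here ties a number or an embryo to a litter. In each of these fits 0 members passed limma's adjusted threshold. Leaving out the samples numbered 3 or 4 together was chosen after seeing the data.

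Markers of the suprabasal and cornified layers followed nearly the same order of embryos as the lipid genes. Their list mean was 8.48, 8.53, 7.89 and 8.76 in wild type 1 to 4 and 8.05, 8.18, 7.61 and 8.40 in null 1 to 4. From highest to lowest the embryos ranked as for the lipid genes, except that wild type 1 and 2 changed places. Of 30 such markers 28 lay below 0 with a median of −0.25, and 0 passed limma's adjusted threshold. At an unadjusted p under 0.05 there were 3, against 3.72% of all genes. In 1 marker every null sample lay below every wild-type sample, as in 1.07% of all genes. Involucrin (Ivl) was at 8.44, 8.35, 6.69 and 8.88 in wild type and 6.84, 7.17, 5.57 and 8.04 in null samples. By contrast, the spinous keratin Krt10 lay between 12.13 and 12.26 in all samples. The share of these markers in the lipid gene differences was not tested.

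**Figure D4:**
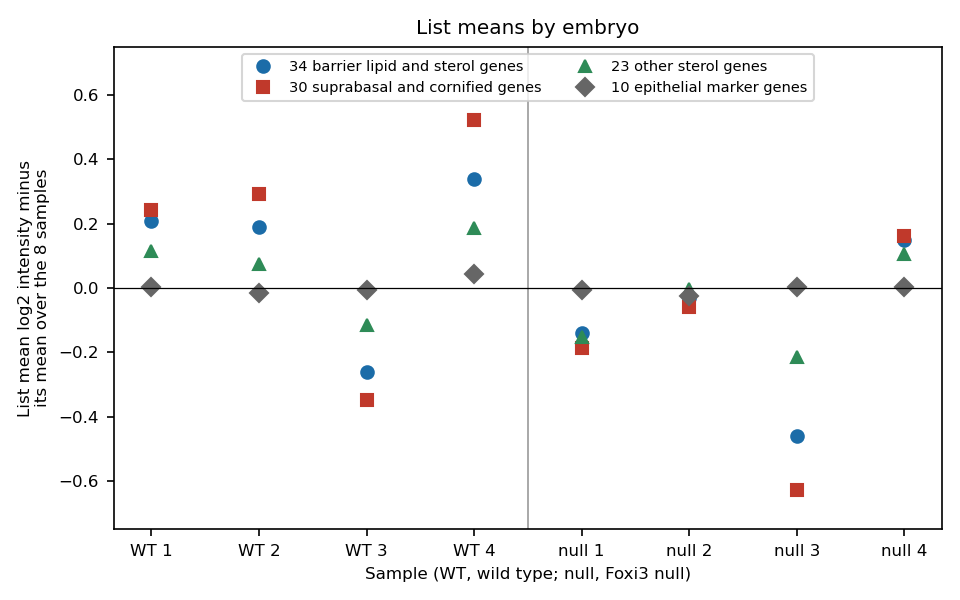
Mean log2 intensity of 4 gene lists in each embryo, as the difference from the mean of that list over the 8 samples (y axis). The barrier lipid and suprabasal lists are both lowest in null 3 and wild type 3 and highest in wild type 4, while the epithelial markers stay within 0.07 of each other.

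Markers of other cells and of handling were read in the same samples. Dermal fibroblast genes had a list mean of 8.45 in null 2, against 6.82 to 7.17 in the other samples, with 16 of 16 above 0. Null 2 was the highest sample in 0 of the 34 lipid genes and the lowest in 2, against 7.73% and 13.3% of all genes. Without null 2 the median of the lipid genes was −0.20 with 34 below 0. Dissociation stress genes were at 9.24 in wild type 4 and 8.37 in null 4, against 7.34 to 7.67 elsewhere, with 19 of 19 below 0. Wild type 4 was also the highest sample for most lipid genes. Genes of adipocytes, another lipid-handling cell type, had list means of 4.63 to 4.77 in wild type and 4.57 to 4.80 in null samples. Of these, 4 of 10 lay below 0, and Adipoq lay between 2.76 and 3.03. Lep, dimmer than the median gene, was at −0.24 (SE 0.10), with every null sample below every wild-type sample, as in 1.07% of all genes. Periderm genes were at 9.41, 9.45, 9.08 and 9.54 in wild type 1 to 4 and at 9.12, 9.32, 9.05 and 9.51 in null 1 to 4 (6 of 9 below 0). Like the lipid genes they were lowest in null 3 and wild type 3 and highest in wild type 4. Skeletal muscle genes were at 4.77 to 5.11 in wild type and 4.71 to 4.81 in null (8 of 8 below 0). Erythroid genes were at 3.40 to 3.58 and 3.58 to 3.78 (0 of 5 below 0), leukocyte genes at 4.49 to 4.72 and 4.46 to 4.71 (5 of 8), endothelial genes at 4.11 to 4.31 and 4.05 to 4.41 (3 of 8), and melanoblast genes at 6.47 to 6.77 and 6.47 to 6.75 (4 of 7). The part of fibroblast, periderm, stress, muscle and erythroid signal in the lipid gene differences was not tested beyond the values without null 2 and without the samples numbered 4.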

How the data were processed

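Expression was measured on arrays in epithelium of 4 Foxi3 null and 4 wild-type embryos, grouped and numbered by sample titles. The deposited values are log2 intensities per Ensembl gene that the authors obtained with RMA, per the submitters' processing notes. The RMA version, probe annotation, genome build and filters were not given in the sources used here. Group means that were also deposited matched recomputed ones to within 7.5e-09, and 8 array columns that could not be matched to a sample were not used. Arrays give no depth, and their number limits the precision.

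The groups were compared with limma 3.58.1 in R 4.3.3 (lmFit, eBayes, two-sided, no covariate) over all 26165 genes, with Benjamini-Hochberg adjustment and a threshold of 0.05, and the steps were tested on simulated data. Exact permutation tests used all 70 arrangements, whose smallest two-sided p is 0.0286. Where a symbol had several rows, that of highest mean was kept. Of 222 symbols on the companion and marker lists, 208 matched as given, 8 by an earlier symbol in RefSeq (GRCm38.p6) and 6 did not match. All members were named, with values by sample for the member of lowest unadjusted p in each role, for Foxi3, and for others stated as chosen after seeing them, which include Alox12b, Aloxe3, Lipk, Smpd1 and Ivl. Members and lists were chosen with earlier results of these data known. Alternatives were quantile normalisation, median centring, an intensity filter, 1 row per symbol, array weights, trend with robust moderation, the replicate number as a block, and leaving out samples.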

Additional observations from a re-analysis of the deposited data

Results flagged for a closer look

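In 7 of 112 values tested, a sample lay far from the other 3 of its group, where chance gives about 6 (1 in 20). The measure is the gap to the nearest sample as a share of the group's range. Wild type 3 stood low for Alox12b (0.872), Sqle (0.872), Cyp51 (0.862) and Elovl6 (0.88), and Foxi3 null 3 stood low for Elovl6 (0.904). The mean of the dissociation stress list stood high in wild type 4 (0.892) and in Foxi3 null 4 (0.919).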

How the results depend on the processing

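No alternative gave a call for any member. All genes tested gave 3 calls, and 0 to 4 when 1 embryo was left out, 0 without both samples numbered 4 and 0 with the replicate number as a block. With that block 18 of 34 members had an unadjusted p under 0.05, against 8.94% of all genes, and the lowest adjusted p among them was 0.136. Deviations of same-numbered samples correlated at 0.13, −0.04, 0.49 and 0.36 for numbers 1 to 4, where a value over 0.1 in every pair was asked for. Numbers 1, 3 and 4 correlated best with their own number and number 2 did not, so that the numbers were not taken as pairs. The mean over the members in null minus that in wild type of the same number was −0.35, −0.22, −0.20 and −0.19, below 0 for 4 of 4 numbers. The median of the members lay between −0.28 and −0.11 in all settings. The sign turned for Abca12 with array weights (0.0033), quantile normalisation (0.02) and without both samples numbered 4 (0.08), for Sgms2 with array weights (0.009) and without both numbered 3 (0.01), and for Dgat1 with median centring (0.02), quantile normalisation (0.0067) and without both numbered 3 (0.01). When 1 embryo was left out, log2 fold changes lay between −0.16 and 0.09 for Abca12, −0.10 and 0.0056 for Sgms2, −0.08 and 0.01 for Asah1, −0.19 and 0.02 for Fabp5, and −0.04 and 0.05 for Dgat1. The cause was not tested. Detection calls were not used, so that low values such as those of Lipn cannot be told from background.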
